A study of Mus musculus with 2 samples.

Results

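The Mir106b-Mir25 and Mir106a-Mir363 clusters are the paralogues of the Mir17-Mir92 cluster in the mouse genome. The first holds Mir106b, Mir93 and Mir25, and the second holds Mir106a, Mir18b, Mir20b, Mir19b-2, Mir92-2 and Mir363. These 9 genes were found by their Ensembl identifiers among the 1973 genes of the count tables, and all 9 were listed. Small RNA was sequenced from skeletal muscle of strain B6NCrl mice at postnatal day 0. The 2 libraries came from 2 pups of 1 litter, pup 1 as replicate 1 and pup 2 as replicate 2, and sex was not collected. Both pups form 1 group, so there are no conditions to compare, and each library stands for 1 pup.

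A miRNA is cut from a hairpin in a longer transcript, and bases 2 to 8 of its mature strand, the seed, are the main contact with target mRNAs. The Mir17-Mir92 cluster and its paralogues are known as proliferation-linked miRNAs that MYC and E2F factors induce, and many of their known targets restrain the cell cycle or promote apoptosis. Mir106b, Mir93 and Mir25 lie inside Mcm7, which encodes a subunit of the replicative helicase. The Mir106a-Mir363 cluster lies on the X chromosome and is known for activation by retroviral insertion in mouse tumours. In muscle, miRNAs of this family are better known from dividing myoblasts than from mature fibres.

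The clusters carry 4 seeds between them, and the leading mature miRNAs are shown here because the comparison of paralogues turns on them. The sequences are from RefSeq on build GRCm38.p6, written 5′ to 3′ with the seed in capitals. All 9 members had an entry. The members with the miR-17 seed, which is also carried by Mir17 and Mir20a, are these.
miR-106b-5p: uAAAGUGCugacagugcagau
miR-93-5p: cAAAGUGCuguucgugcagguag
miR-106a-5p: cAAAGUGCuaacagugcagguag
miR-20b-5p: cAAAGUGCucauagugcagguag
The members with the miR-92 seed are these, and miR-92a-3p is the product of Mir92-2 and also of Mir92-1.
miR-25-3p: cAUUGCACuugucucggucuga
miR-92a-3p: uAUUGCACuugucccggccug
miR-363-3p: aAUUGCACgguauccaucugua
The miR-18 and miR-19 seeds occur in the second cluster, and miR-19b-3p is the product of Mir19b-2 and also of Mir19b-1.
miR-18b-5p: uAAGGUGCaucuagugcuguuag
miR-19b-3p: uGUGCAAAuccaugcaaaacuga

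Several of these differ from their Mir17-Mir92 paralogue by very few bases, none of them in the seed. With positions counted from 1 at the 5′ end and the base of the Mir17-Mir92 miRNA first, miR-106a-5p differs from miR-17-5p at 1 position, U10A. The miR-20b-5p strand differs from miR-20a-5p at 2 positions, U1C and U10C, and miR-18b-5p differs from miR-18a-5p at A18U and A20U. The miR-106b-5p strand carries C1U, U10G and G20A against miR-17-5p and is 21 bases long instead of 23. Against miR-92a-3p, miR-25-3p carries U1C, C14U and C18U.

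For 2 of the 9 members the leading mature miRNA is identical to that of a Mir17-Mir92 gene, and their hairpins are shown because a read that lies within the shared stretch matches both loci. The stretch that each pair has in common is in capitals. It is 22 bases for Mir92-2 and Mir92-1 and 25 bases for Mir19b-2 and Mir19b-1.
Mir92-2: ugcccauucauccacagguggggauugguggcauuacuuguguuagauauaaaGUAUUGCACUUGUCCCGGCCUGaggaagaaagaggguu
Mir92-1: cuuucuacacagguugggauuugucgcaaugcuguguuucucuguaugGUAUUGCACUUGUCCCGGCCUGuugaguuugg
Mir19b-2: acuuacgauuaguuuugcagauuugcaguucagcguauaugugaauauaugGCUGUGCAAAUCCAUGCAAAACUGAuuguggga
Mir19b-1: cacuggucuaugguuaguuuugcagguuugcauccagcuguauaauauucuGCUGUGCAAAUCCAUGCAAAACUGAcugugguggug
Reads that mapped to several places were 30.2% of all reads in replicate 1 and 29.9% in replicate 2, and they were listed apart from the gene counts. Counts of Mir92-2, Mir19b-2 and their copies are therefore uncertain, and may be too low where reads matched both loci. The other 7 members share at most 17 consecutive bases with any other mouse miRNA hairpin in RefSeq. A count is for the whole hairpin and does not say which arm a read came from, so the leading arm shown for each gene is the one generally known as its main product.

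The Mir106b-Mir25 cluster lies on the minus strand of chromosome 5 (mm10). Mir106b (ENSMUSG00000065514) spans 138165737 to 138165818, Mir93 (ENSMUSG00000065527) spans 138165523 to 138165610, and Mir25 (ENSMUSG00000065394) spans 138165321 to 138165404. The 3 hairpins fit in 498 bases. All 3 are intronic in the protein-coding Mcm7 transcripts that cover them, and Mir93 and Mir25 also lie in an exon of a Mcm7 transcript annotated as a retained intron. The Mir106a-Mir363 cluster spans 875 bases on the minus strand of chromosome X. Its hairpins, in the order of transcription, are Mir106a (52742503 to 52742567, ENSMUSG00000065456), Mir18b (52742331 to 52742413, ENSMUSG00000077111) and Mir20b (52742113 to 52742192, ENSMUSG00000076041). They are followed by Mir19b-2 (52741983 to 52742066, ENSMUSG00000065473), Mir92-2 (52741838 to 52741928, ENSMUSG00000065613) and Mir363 (52741693 to 52741767, ENSMUSG00000070106). Up to 5 bases of Mir106a overlap an exon of the non-coding gene Kis2, and the other 5 hairpins lie outside any annotated gene of another type.

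Replicate 1 held 3754895 counts on the genes' own strand and replicate 2 held 5133949, and levels are given as CPM, in which each count is scaled by these totals. A minimum of 10 counts in each library was met by 311 genes, 8 of them members. The labelled tissue was checked against 7 skeletal muscle miRNA genes, which all met that minimum and had a summed level of 81334 CPM in replicate 1 and 89351 CPM in replicate 2. Mir206 alone, a miRNA of skeletal muscle, had 79447 and 87198 CPM, so the sum is nearly all Mir206. Of the same list, Mir133b had 681 and 865 CPM, Mir499 573 and 626, and Mir208b 560 and 567. Mir486 had 61.5 and 80.1 CPM, Mir1a-1 6.39 and 8.96, and Mir133a-1 5.33 and 6.23. Reads that mapped to several places are not in these counts. Genes named as numbered copies, such as Mir1a-1 and Mir133a-1, may therefore be counted too low, so their low values do not show that their miRNAs were scarce. Markers of other tissues differed between the libraries. The 7 epithelium and skin genes summed to 5688 CPM in replicate 1 and 230 CPM in replicate 2. Mir140 of cartilage had 6539 and 966 CPM, and the 4 listed of 5 blood genes summed to 950 and 661 CPM. Among the blood genes, Mir451a and Mir223 were higher in replicate 1 and Mir144 was lower there. Mir126a of endothelium had 40785 and 36558 CPM. Of 11 pluripotent cell genes, 3 had 0 counts in both libraries and the rest had at most 10 counts in each. The counts of the pups differed far beyond sampling noise, with a chi-square of 337 per degree of freedom, so each was kept as a sample of its own.

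In newborn muscle the Mcm7 cluster was present at a moderate level and the X-linked cluster was sparse. Mir93 had 4758 counts in replicate 1 and 4064 in replicate 2, which is 1267 and 792 CPM. Mir106b had 4099 and 4553 counts, or 1092 and 887 CPM. These neighbours in the intron could not be put in order, since Mir93 was above Mir106b in replicate 1 and below it in replicate 2. Mir25 had 1202 and 1479 counts, or 320 and 288 CPM, and lay below both in both libraries. Of the listed genes by mean CPM, Mir93 ranked 89, Mir106b 91 and Mir25 137. All 3 lay above 178 CPM, the median of those 311 genes. In bulk tissue a lower count cannot be divided into fewer cells that make a miRNA and less of it per cell.

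Each gene of the X-linked cluster lay below each gene of the Mcm7 cluster in both libraries. Mir106a had 198 counts in replicate 1 and 147 in replicate 2, or 52.7 and 28.6 CPM. Mir20b, which shares its seed, had 143 and 130 counts, or 38.1 and 25.3 CPM. Mir92-2 had 135 and 165 counts, or 35.95 and 32.1 CPM. Mir363, the member that has no counterpart in the Mir17-Mir92 cluster, had 109 and 143 counts, or 29.0 and 27.9 CPM. In the order of means, Mir106a, Mir92-2, Mir20b and Mir363, the ranges of neighbours overlapped. Across that order, Mir106a lay above Mir20b and Mir363 in both libraries, and Mir92-2 lay above Mir363 in both. In replicate 2 the counting intervals of each of these pairs overlapped, with 147 counts for Mir106a, 130 for Mir20b and 143 for Mir363. The intervals of Mir92-2 and Mir363 overlapped in replicate 1 as well. Mir18b was lower, with 16 and 26 counts, or 4.26 and 5.06 CPM. Mir19b-2 was lowest, with 5 and 4 counts, or 1.33 and 0.779 CPM, close to the limit of 3 counts that a count of 0 allows (0.799 CPM in replicate 1 and 0.584 CPM in replicate 2). The mean levels of the second cluster therefore ran from 1.06 to 40.7 CPM, and its ranks from 209 to 375.

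**Figure D1:**
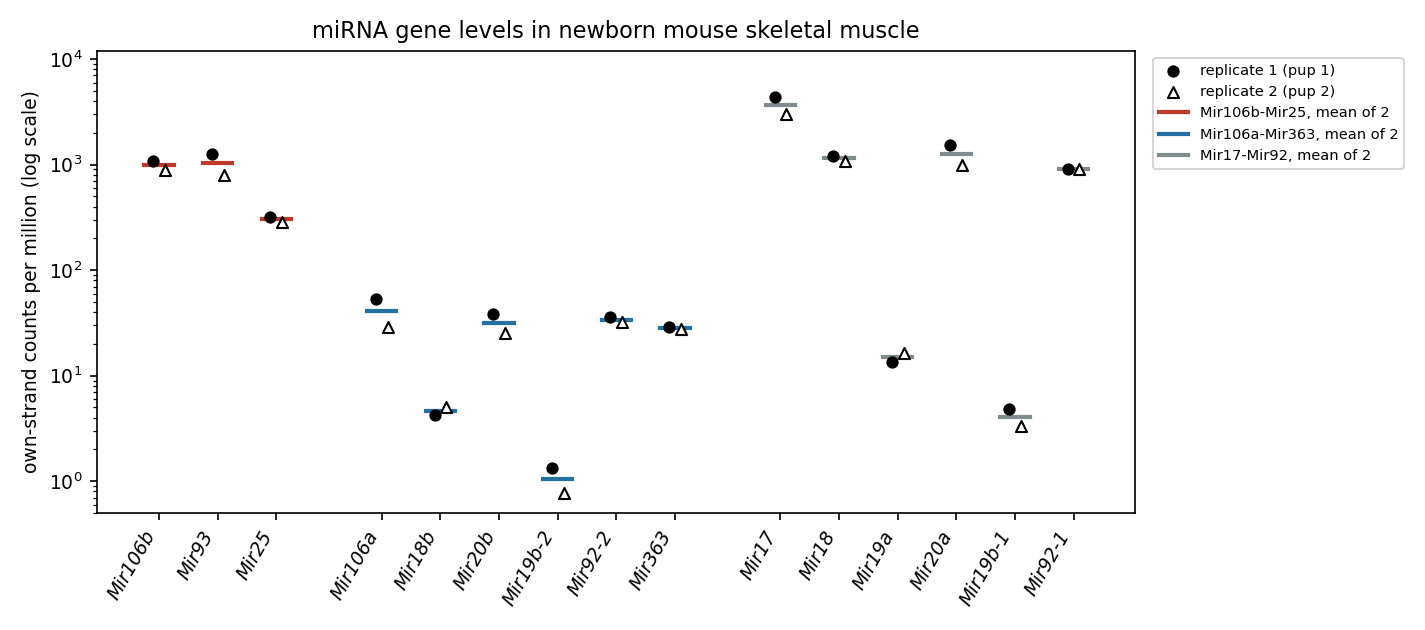
Own-strand CPM (log axis) of each gene, in the order of transcription within its cluster. Filled circles are replicate 1, open triangles replicate 2 and bars their mean. The 3 Mir106b-Mir25 genes lie between 288 and 1267 CPM, the 6 Mir106a-Mir363 genes between 0.779 and 52.7 CPM, and Mir17 reaches 4366 CPM.

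Summed over its genes, the Mir106b-Mir25 cluster held 10059 counts in replicate 1 and 10096 in replicate 2. This was 0.268% of gene counts (95% interval 0.263 to 0.273, Clopper-Pearson) and 0.197% (0.193 to 0.201). The Mir106a-Mir363 cluster held 606 and 615 counts, which was 0.0161% (0.0149 to 0.0175) and 0.0120% (0.0111 to 0.0130). Mir17-Mir92, on chromosome 14, held 30165 and 30851 counts, or 0.803% and 0.601%. All intervals here cover counting error of reads only. No molecular identifiers are described for the reads, so repeated reads of the same molecule cannot be told apart and the intervals may be too narrow. Both clusters therefore took a larger share in replicate 1, and so did Mir17-Mir92.

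The proportion between the clusters was nearly the same in both pups. The Mcm7 cluster held 16.6 times the counts of the X-linked cluster in replicate 1 and 16.4 times in replicate 2. On the log2 scale the difference was 4.05 (3.93 to 4.17) and 4.04 (3.92 to 4.16), a mean of 4.05 ± 0.011 (SD, n = 2). Against Mir17-Mir92, the Mcm7 cluster held 0.333 and 0.327 times the counts, a mean log2 difference of -1.60 ± 0.019. The X-linked cluster held 0.0201 and 0.0199 times the counts of Mir17-Mir92, a mean log2 difference of -5.64 ± 0.0079. With 2 libraries no p-value was computed for these differences, since an exact sign-flip test of 2 values cannot go below 0.5. Each interval lay well away from 0. Without the genes that share an identical mature miRNA, the difference between the Mcm7 and X-linked clusters was 4.47. That setting takes Mir92-2 and Mir19b-2 from the X-linked cluster and no gene from the Mcm7 cluster, so the difference could only rise. If reads that matched both loci are missing from Mir92-2 and Mir19b-2, the difference over all genes is too large instead, which was not tested. Counts were not divided by length, since a read covers a whole mature miRNA and the leading strands are 21 to 23 bases long.

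Gene by gene, the distance from the X-linked cluster to its Mir17-Mir92 counterpart was uneven. Mir106a had 198 and 147 counts, against 16393 and 15378 for Mir17, log2 differences of -6.37 and -6.71. Mir20b had 143 and 130 counts, against 5761 and 5094 for Mir20a, log2 differences of -5.33 and -5.29. The interval for Mir106a against Mir17 (-6.58 to -6.17 in replicate 1) lay below that for Mir20b against Mir20a (-5.58 to -5.09), and it did so in replicate 2 as well (-6.95 to -6.47 and -5.55 to -5.04). Mir18b had 16 and 26 counts, against 4532 and 5597 for Mir18, the widest gap of the 5 pairs at -8.15 and -7.75. Mir92-2 had 135 and 165 counts, against 3410 and 4681 for Mir92-1, log2 differences of -4.66 and -4.83. Mir19b-2 had 5 and 4 counts, against 18 and 17 for Mir19b-1, differences of -1.85 and -2.09. Both of these last pairs have identical mature miRNAs. How many mismatches were allowed in mapping is not given in the sources used here, so counts of paralogues that differ at 1 or 2 positions are uncertain too.

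The Mcm7 cluster lay closer to Mir17-Mir92. Mir93 had 4758 and 4064 counts, against 5761 and 5094 for Mir20a, log2 differences of -0.28 (-0.33 to -0.22) and -0.33 (-0.39 to -0.27). Mir106b had 4099 and 4553 counts, against 16393 and 15378 for Mir17, or 0.250 and 0.296 times as many. Mir25 had 1202 and 1479 counts, against 3410 and 4681 for Mir92-1, differences of -1.50 and -1.66. Within the seed groups, Mir106b held 20.7 and 31.0 times the counts of Mir106a, Mir93 held 33.3 and 31.3 times those of Mir20b, and Mir25 held 11.0 and 10.3 times those of Mir363.

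The composition of the clusters differed. In the Mcm7 cluster, Mir93 made up 43.8% ± 4.98, Mir106b 42.9% ± 3.07 and Mir25 13.3% ± 1.91 of counts (SD, n = 2). In the X-linked cluster, Mir106a made up 28.3% ± 6.20, Mir92-2 24.6% ± 3.22, Mir20b 22.4% ± 1.74 and Mir363 20.6% ± 3.72. Mir18b held 3.43% ± 1.12 there and Mir19b-2 0.738% ± 0.124. Mir106a led the X-linked cluster in replicate 1, with 32.7% (28.9 to 36.6), against 18.0% (15.0 to 21.3) for Mir363, the lowest of these 4. In replicate 2 the same 4 genes ran from 21.1% for Mir20b to 26.8% for Mir92-2. Mir18b and Mir19b-2 stood well below them in both libraries. In Mir17-Mir92 the genes with the miR-19 seed were low too, Mir19a with 51 and 84 counts and Mir19b-1 with 18 and 17. Mir18, in contrast, had 16.6% ± 2.20 of the counts of its cluster. Mir19b-2 and Mir19b-1 have an identical mature miRNA, so their low counts may reflect reads that matched both loci, which was not tested.

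Counts were then grouped by seed over all listed genes, to ask how much of each seed family came from the members. The whole count of each gene was used, so reads of both arms are included, and these are not counts of reads with the seed. Of 7 genes with the miR-17 seed, the 6 in the 3 clusters held all counts, and the other one, Mir6383, had 0 in both libraries. Mir106b and Mir93 supplied 28.3% (27.8 to 28.8) of 31352 counts in replicate 1 and 29.3% (28.8 to 29.9) of 29366 counts in replicate 2. Mir106a and Mir20b supplied 1.09% and 0.943%. Mir17 and Mir20a supplied the remaining 70.7% and 69.7%. The share of the 4 members together was 29.8% ± 0.671 (SD, n = 2).

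Genes with the miR-92 seed summed to 1400 CPM in replicate 1 and 1345 CPM in replicate 2, less than the 8350 and 5720 CPM of genes with the miR-17 seed. Of the counts of the miR-92 family, Mir25 supplied 22.9% and 21.4%, Mir92-2 and Mir363 together 4.64% and 4.46%, and Mir92-1 64.9% and 67.8%. Which arm the reads of Mir92-1 and Mir92-2 came from is not known. Genes elsewhere supplied 7.63% and 6.33%, Mir32 on chromosome 4 with 370 and 412 counts and Mir92b on chromosome 3 with 31 and 25. Mir367, a further gene with this seed, had 0 counts in both. Without Mir92-1 and Mir92-2, whose mature miRNA is identical, Mir25 and Mir363 held 77.7% of the remaining counts. The split within this family therefore rests on how many reads of miR-92a-3p entered the gene counts. Reads that matched both loci may be missing from Mir92-1 and Mir92-2, which would make the share of Mir25 too high. The X-linked cluster supplied 0.352% and 0.462% of counts with the miR-18 seed and 5 of 74 and 4 of 105 counts with the miR-19 seed.

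**Figure D2:**
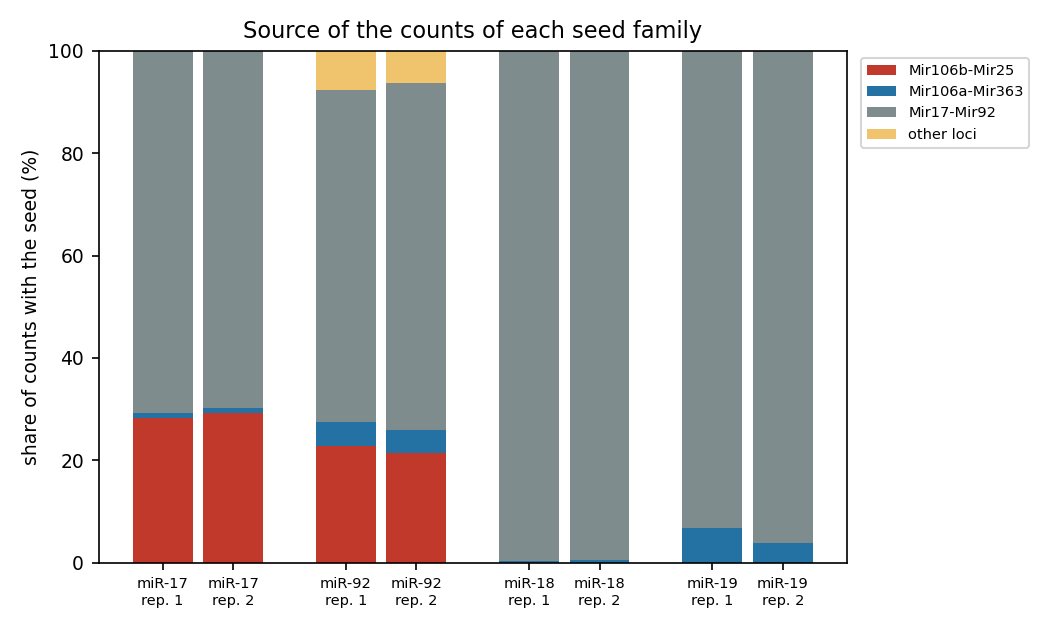
Share (percent) of the own-strand counts of all genes with each seed that came from Mir106b-Mir25, Mir106a-Mir363, Mir17-Mir92 and other loci. Counts are for whole hairpins, both arms together, and replicate 1 is left of replicate 2. Mir106b-Mir25 holds 28.3% and 29.3% of the miR-17 seed and 22.9% and 21.4% of the miR-92 seed, and almost the whole of the miR-18 seed is from Mir17-Mir92.

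The pups were compared gene by gene as the log2 ratio of replicate 1 over replicate 2 after TMM scaling. An exact two-sided binomial test was made for the 373 genes whose counts summed to 10 or more, with Benjamini-Hochberg adjustment over these genes. It compares the 2 libraries beyond counting error and not conditions. No member was called at 2-fold or more, against 5.09% of all tested genes (4.56% higher in replicate 1 and 0.536% higher in replicate 2). By the adjusted p alone, at a threshold of 0.05, 4 of the 8 members tested were higher in replicate 1, against 23.3% of all tested genes, and 0 were higher in replicate 2, against 25.7%. In either direction this was 4 members of 8, against 49.1% of all tested genes. Without a threshold, 6 members had the higher value in replicate 1, against 49.3% of tested genes, and 2 in replicate 2, against 50.7%. The median ratio was 0.10 over the 8 members and -0.0059 over all 373 genes. Mir19b-2 had too few counts to be tested. Scaling by total counts instead moved the median of all genes by 0.13. Of all genes past the threshold, 47.5% were higher in replicate 1 with TMM and 64.8% with total counts. Members past it were 4 of 8 with TMM and 5 of 8 with total counts. Among all 373 tested genes, 183 and 182 passed it.

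**Figure D3:**
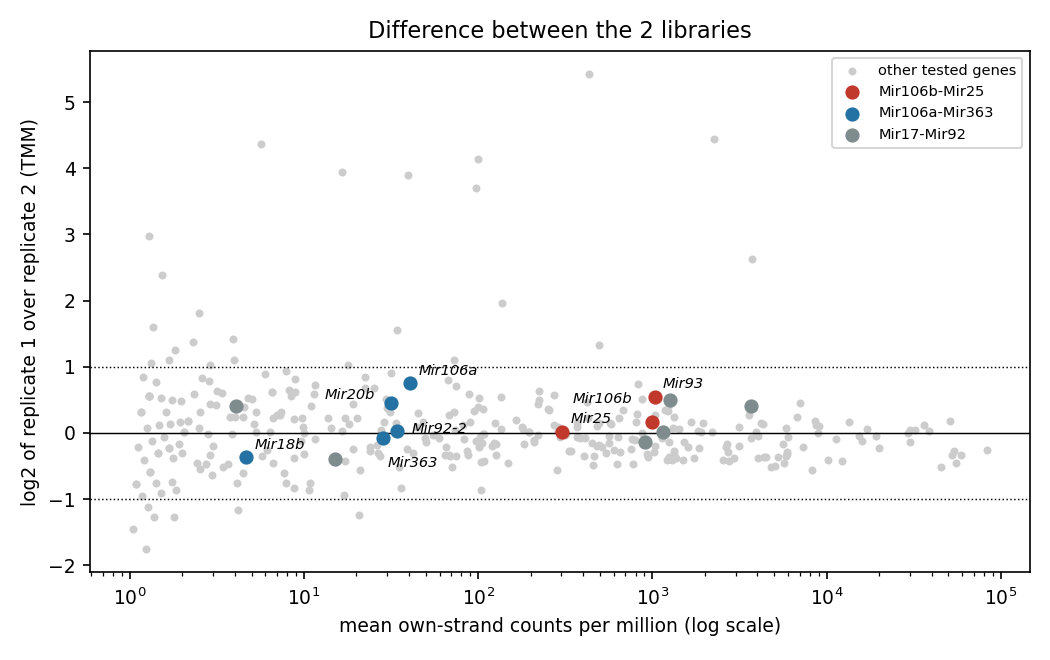
Log2 of replicate 1 over replicate 2 after TMM scaling against mean CPM (log axis) for the tested genes. Coloured points are the 3 clusters, the other tested genes are in light grey, and dotted lines mark 2-fold. All 8 tested members lie within 2-fold, Mir106a highest at 0.75 and Mir18b lowest at -0.36.

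The 4 members that were higher in replicate 1 are those with the miR-17 seed. Mir106a, with 52.7 CPM in replicate 1 and 28.6 in replicate 2, had a log2 ratio of 0.75 (0.43 to 1.07, adjusted p = 4.87e-06, exact binomial test). Mir93 had a ratio of 0.55 (0.49 to 0.61, adjusted p = 8.62e-70). Mir20b had 0.46 (0.10 to 0.81, adjusted p = 0.0223) and Mir106b 0.17 (0.11 to 0.23, adjusted p = 2.14e-07). The paralogues with this seed in the Mir17-Mir92 cluster were higher in replicate 1 as well, Mir17 with 4366 and 2995 CPM (log2 ratio 0.41) and Mir20a with 1534 and 992 CPM (0.50).

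The members with the miR-92 seed did not pass the threshold. Mir25 had a ratio of 0.021 (-0.091 to 0.13, adjusted p = 0.827, exact binomial test), Mir92-2 of 0.031 (-0.31 to 0.37, adjusted p = 0.913) and Mir363 of -0.070 (-0.45 to 0.30, adjusted p = 0.808). Mir92-1 was lower in replicate 1 with TMM, at -0.14. Over the 3 clusters, the 6 genes with the miR-17 seed thus ran from 0.17 to 0.75 and the 4 with the miR-92 seed from -0.14 to 0.031. Outside the 3 clusters, Mir32 and Mir92b carry the miR-92 seed too and had higher ratios, 0.16 and 0.62. Neither passed the threshold, and Mir92b had only 31 and 25 counts. The split by seed therefore holds within the 3 clusters and not for every gene with the miR-92 seed. Mir18b had a ratio of -0.36 with a wide interval (-1.38 to 0.57). Under total-count scaling every ratio was higher by 0.13, so that Mir92-1 came close to 0, Mir363 had 0.061 and Mir25 passed the threshold at 0.15 (adjusted p = 0.0153, exact binomial test).

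**Figure D4:**
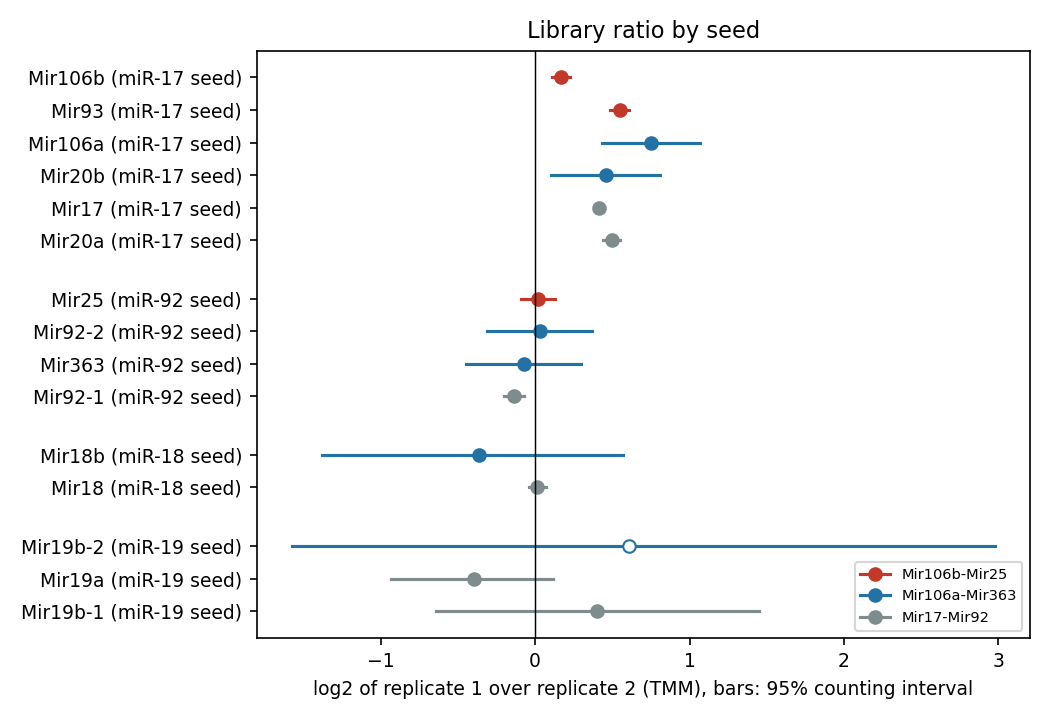
Log2 of replicate 1 over replicate 2 (TMM) for each gene of the 3 clusters, grouped by seed, with bars for the 95% counting interval; the open circle is Mir19b-2, which was not tested. The 6 genes with the miR-17 seed lie between 0.17 and 0.75, and the 4 with the miR-92 seed between -0.14 and 0.031. Mir32 (0.16) and Mir92b (0.62), which carry the miR-92 seed outside the 3 clusters, are not shown.

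A ratio of counts within a cluster does not depend on scaling, and it was computed after the values above were seen. In the Mcm7 cluster, genes with the miR-17 seed held 7.37 times (6.94 to 7.83) the counts of Mir25 in replicate 1 and 5.83 times (5.51 to 6.16) in replicate 2. In the X-linked cluster, Mir106a and Mir20b held 1.40 times (1.18 to 1.65) the counts of Mir92-2 and Mir363 in replicate 1 and 0.899 times (0.762 to 1.06) in replicate 2. In Mir17-Mir92 the corresponding values were 6.50 (6.27 to 6.74) and 4.37 (4.24 to 4.52). These ratios regroup the counts already given and are a description of the 2 libraries, with no test. The epithelial, cartilage and blood markers given above were also higher in sum in replicate 1, and their part in these ratios was not tested. The pups are a single litter, and pup, dissection and library preparation cannot be told apart.

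Genes close in level were found by the distance of log2(CPM + 1) over the 2 libraries, a measure that with 2 points reflects level above all. Mir425 was nearest to Mir106b (distance 0.116, then Mir92-1 at 0.268) and to Mir93 (0.206, then Mir16-1 at 0.336). Mir339 and Mir679 were nearest to Mir25 (0.0739 and 0.0775). Mir155 and Mir449a were nearest to Mir106a, but further off (0.404 and 0.506). Mir194-2 and Mir222 were nearest to Mir20b (0.0964 and 0.117), Mir449a and Mir194-2 to Mir92-2 (0.0885 and 0.280), and Mir26a-2 and Mir150 to Mir363 (0.0626 and 0.0811). Of the genes close in level, Mir92-1, Mir16-1, Mir194-2 and Mir26a-2 are each listed with a further numbered copy. Their counts may be too low where reads mapped to several places, so closeness in counts need not be closeness in level of the miRNA. Reads on the opposite strand were 0 for all 9 members in both libraries.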

How the data were processed

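Small RNA libraries of 2 littermates at postnatal day 0 were analysed as 1 group. The deposited values are raw read counts per miRNA gene on build mm10 with annotation M4, per the deposited description of each library, and the sources used here name no aligner or counter. There are 3 count columns per table, without a header. The first equals the sum of the others in every gene, and the second, read from the layout and totals as own-strand counts, was used. The 4 lines of uncounted reads stayed out of library sizes. Gene counts were 52.6% of reads in replicate 1 and 51.6% in replicate 2.

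Identifiers were matched to GENCODE M21 (1894 of 1973), which gave names and coordinates. CPM used own-strand totals. For ratios, 0.5 was added to counts and libraries were scaled by TMM (edgeR 4.0.16, R 4.3.3); with 1 group, edgeR's quasi-likelihood test has no contrast. Exact binomial tests and Clopper-Pearson intervals used scipy 1.17.1 and cover counting error only. The binomial tests were checked on simulated counts with sampling noise alone. That check cannot cover the further variation between these pups. Their p-values measure only the difference between these libraries.

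Members and lists were chosen with earlier results of these data known. Named genes were the members, the Mir17-Mir92 genes, other genes with a member's seed and at least 10 counts in both libraries, the markers, and the 2 nearest genes of each member with at least 100 counts in both libraries. Genes with 0 counts that carry a member's seed were named in addition, after their values were seen. Alternatives were counting both strands, all reads as denominator, scaling by total counts or by size factors from DESeq2 1.42.0, other filters and another pseudocount, each library alone and leaving out genes with an identical mature miRNA. Division by mature length was added after seeing the data.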

Additional observations from a re-analysis of the deposited data

How the results depend on the processing

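Over all reads as denominator the shares were 0.121% for Mir106b-Mir25, 0.00734% for Mir106a-Mir363 and 0.366% for Mir17-Mir92, and the median level of the 9 members was 17.4 CPM, because the denominator grows. Without genes that share an identical mature miRNA, the Mir106a-Mir363 share was 0.0105%, and the log2 differences were 4.47 for Mir106b-Mir25 over Mir106a-Mir363, -1.39 for Mir106b-Mir25 over Mir17-Mir92 and -5.86 for Mir106a-Mir363 over Mir17-Mir92. No gene leaves Mir106b-Mir25 in this setting, so its differences over the other clusters could only rise. The members' share of the miR-92 seed was then 77.7%, because Mir92-1 leaves the sum. For the miR-19 seed no member was left. Division by mature length, chosen after seeing the data, gave 4.06, -1.55 and -5.61 for the same 3 differences. Under total-count scaling Mir363 changed sign (0.061), and Mir25 passed the threshold at 0.15 (adjusted p = 0.0153, exact binomial test). Under every scaling, strand, filter and pseudocount run, 4 or 5 members were beyond counting error and 0 at 2-fold. With total counts, 5 of 8 members were beyond counting error, against 182 of 373 tested genes. With no filter these were 4 of 9 members against 177 of 653 genes, and with at least 50 counts 4 of 7 against 178 of 282. At 2-fold, 22, 20 and 13 of all genes were called in these 3 runs.

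Each library alone gave shares of 0.197% to 0.268% for Mir106b-Mir25 and 0.0120% to 0.0161% for Mir106a-Mir363. No paired analysis was possible because the pups form a single group. Depth limits Mir19b-2 and Mir18b, which had at most 26 counts in a library.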
